A study of Homo sapiens with 24 samples.

Results

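The genes described here are 27 genes of cholesterol synthesis, uptake and efflux, followed in 4 human neuroblastoma cell lines with and without the histone demethylase inhibitor GSK-J4. They were chosen by gene symbol from a list of the pathway, with earlier results of these data known. All 27 are listed in the authors' deposited tables for LAN5 (of 33561 genes) and SK-N-BE(2) (of 29328), and 26 are listed for IMR5 (of 30271) and SK-N-FI (of 32760), where ABCG1 is not. Neuroblastoma is a childhood tumour of the developing sympathetic nervous system, and GSK-J4 enters cells and blocks the histone H3 lysine 27 demethylases KDM6A and KDM6B. LAN5 and IMR5 have amplified MYCN and are sensitive to the compound, SK-N-FI has wildtype MYCN and is sensitive, and SK-N-BE(2) has amplified MYCN and is resistant, all per the labels. Each line was left untreated or was given 1 µM GSK-J4 for 72 hours, in 3 libraries per group and 24 in all. Each class of line other than the sensitive MYCN-amplified one is a single line, so a difference between classes is a difference between these lines.

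Cells build cholesterol from acetyl-CoA, first through the mevalonate steps to farnesyl diphosphate and then through squalene and lanosterol. The transcription factor SREBP-2, encoded by SREBF2, is carried by SCAP from the endoplasmic reticulum to the Golgi when sterols are low, where it is cut free to switch on these genes, and INSIG1 and INSIG2 hold SCAP back when sterols are plentiful. When sterols are high, liver X receptors switch on the export pumps ABCA1 and ABCG1 and the ubiquitin ligase MYLIP, which sends lipoprotein receptors to degradation. The 27 genes are given below by role: 7 genes of the mevalonate steps, 11 of the sterol steps, 4 regulators, 3 genes of transport and uptake and 2 of efflux.

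Promoter sequence was matched in RefSeq (GRCh38.p14) for 23 of the 27 genes, in windows of 300 bases from 250 before to 50 after a transcription start, 29 windows in all. ACAT2, SQLE, FDFT1 and ABCG1 had no entry. The stretches below are shown because these genes stand for the patterns reported below: SREBF2 and STARD4 rose in all 3 sensitive lines, as did MYLIP, FDPS fell in all 3, and INSIG1 moved in opposite directions between lines. Each runs 5′ to 3′ on the gene's strand and ends before the first annotated exon base, except that of FDPS, which runs 1 base further to complete a match. Capitals mark matches on either strand to TCACNCCAC, a form of the sterol regulatory element that SREBP-2 binds, and to CCAAT, the box bound by NF-Y; the pair do not overlap in these stretches. The stretches are chr22:41832855-41833078 (SREBF2, plus strand), chr7:155297628-155297775 (INSIG1, plus), chr1:155308616-155308748 (FDPS, plus), chr5:111512591-111512785 (STARD4, minus) and chr6:16128836-16129085 (MYLIP, plus).
SREBF2: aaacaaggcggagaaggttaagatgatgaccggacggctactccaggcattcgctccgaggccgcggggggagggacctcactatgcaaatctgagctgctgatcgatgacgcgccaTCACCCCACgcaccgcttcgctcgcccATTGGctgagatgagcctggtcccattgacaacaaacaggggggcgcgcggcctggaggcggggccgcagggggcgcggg
INSIG1: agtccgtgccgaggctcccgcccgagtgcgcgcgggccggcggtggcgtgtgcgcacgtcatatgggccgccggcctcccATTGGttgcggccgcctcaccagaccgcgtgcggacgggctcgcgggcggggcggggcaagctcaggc
FDPS: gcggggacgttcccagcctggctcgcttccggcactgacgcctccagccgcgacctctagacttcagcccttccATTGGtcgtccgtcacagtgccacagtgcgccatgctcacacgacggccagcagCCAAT
STARD4: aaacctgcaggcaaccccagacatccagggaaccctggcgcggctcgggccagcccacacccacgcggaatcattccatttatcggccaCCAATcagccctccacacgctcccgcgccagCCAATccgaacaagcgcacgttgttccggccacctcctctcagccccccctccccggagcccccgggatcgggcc
MYLIP: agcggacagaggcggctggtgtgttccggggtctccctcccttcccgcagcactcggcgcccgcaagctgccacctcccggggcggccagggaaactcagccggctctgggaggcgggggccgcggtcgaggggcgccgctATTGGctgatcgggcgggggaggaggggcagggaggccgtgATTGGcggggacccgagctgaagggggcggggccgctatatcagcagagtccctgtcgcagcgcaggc

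SREBF2 was the single gene of the 23 with a match to TCACNCCAC, written TCACCCCAC above, with its first base 133 bases before the start site. Among all 35116 RefSeq windows of this length 1.13% held a match. Only this form was searched, and only in these windows, so other forms or sites of the element would be missed. CCAAT was found on either strand in 19 of the 29 windows (65.5%), against 34.6% of all windows, and CACGTG, an E-box bound by MYC-family factors among others, in 6 (20.7%), against 7.26%. The genes with CACGTG were ABCA1, INSIG1, LSS, SC5D and SCAP. The windows of SC5D overlap and hold the same CACGTG and the same CCAAT match, so each is counted more than once. STARD4, FDPS and MYLIP each carry a pair of capital stretches above, and INSIG1 carries 1, so the box is present upstream of genes that rose and of genes that fell. On GRCh38 the genes lie on 17 chromosomes: SREBF2 (ENSG00000198911) on chromosome 22 from 41833079 to 41907308, FDPS (ENSG00000160752) on chromosome 1 from 155308748 to 155320666 and MYLIP (ENSG00000007944) on chromosome 6 from 16129125 to 16148248. STARD4 (ENSG00000164211) lies on chromosome 5 from 111496033 to 111512590, and INSIG1 (ENSG00000186480) on chromosome 7 from 155297776 to 155310235.

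Only 1 comparison per line was used, without values per library, so depth and the spread between libraries are unknown, and errors are standard errors of the fitted fold changes. The labels do not say that replicates were separate cultures, and p-values therefore measure the spread between these libraries. Fold changes are read as GSK-J4 over untreated, a direction the tables do not state, from the sign of BBC3 in the sensitive lines and of MT2A and SLC30A1 in SK-N-BE(2). Reversing a table would turn every direction of that line. The table taken for SK-N-FI has a name that only resembles the line's. Of 9 adrenergic neuroblastoma markers all were listed in LAN5 and SK-N-BE(2) and 8 in IMR5 and SK-N-FI, where TH was not listed. They fell for 8, 4, 6 and 6 in LAN5, IMR5, SK-N-FI and SK-N-BE(2) and rose for 0, 3, 1 and 0, with median log2 changes of -0.82, -0.26, -0.56 and -0.20. Over all tested genes 19.2%, 21.6%, 14.8% and 0.858% fell in the same order, and 22.5%, 22.6%, 16.8% and 1.62% rose. By the authors' deposited tables, fibroblast and muscle markers summed to a mean normalized count of 32972 in SK-N-BE(2) and of 808 to 2494 in the other lines, and the immune and endothelial list and the hepatocyte list to between 0.827 and 156 in any line. The Schwann and glia list summed to 200, 65.7, 139 and 49.2 in LAN5, IMR5, SK-N-FI and SK-N-BE(2). Mitochondrially encoded mRNAs, counted as a sign of RNA quality, fell for 9, 8, 13 and 2 of 13 in LAN5, IMR5, SK-N-FI and SK-N-BE(2), with median log2 changes of -1.01, -0.62, -2.01 and 0.0428. The part of these markers in the results below was not tested.

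The levels are given as each gene's mean over treated and untreated libraries, in parts per 1000000 (ppm) of the summed mean normalized counts of that line's table, and per kilobase of exon where genes are compared. Tables were normalized separately, so levels across lines are a description. Most of these genes were among the more strongly expressed of each table, with a median percentile of 80.7, 79.8, 87.0 and 82.3 in LAN5, IMR5, SK-N-FI and SK-N-BE(2). Per kilobase, FDFT1, which encodes squalene synthase, was highest in LAN5 at 48.1 ppm. STARD4, a sterol carrier that moves cholesterol between membranes, led in IMR5 at 29.4. HMGCS1, which makes HMG-CoA, the precursor of mevalonate, led in SK-N-FI and SK-N-BE(2) at 98.2 and 47.7. The efflux pumps were at the bottom in every line where they were listed, with ABCA1 at 1.26, 0.0621, 0.103 and 0.169 ppm per kilobase in LAN5, IMR5, SK-N-FI and SK-N-BE(2).

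Over the 26 genes listed in all 4 tables the highest line exceeded the lowest by a median of 3.25 times, and 14 of the 26 were highest in SK-N-FI, 7 in SK-N-BE(2), 3 in IMR5 and 2 in LAN5. The widest range was that of ABCA1, at 14.3 ppm in LAN5 and 0.705 in IMR5, a ratio of 20.3. MVK, the mevalonate kinase gene, had 12.8, 7.52, 50.6 and 28.2 ppm in LAN5, IMR5, SK-N-FI and SK-N-BE(2). SC5D, a desaturase of the late sterol steps, had 73.6, 30.8, 126.5 and 194.3 in the same order. STARD4 had 82.8, 167.0, 510.9 and 215.7. IMR5 was lowest for MVK and SC5D, and SK-N-FI was highest for MVK and STARD4. The narrowest ranges were those of LSS, lanosterol synthase, from 62.9 in SK-N-FI to 82.8 in IMR5, and of ACAT2, a thiolase that makes acetoacetyl-CoA, from 53.9 in LAN5 to 73.1 in SK-N-FI.

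**Figure D1:**
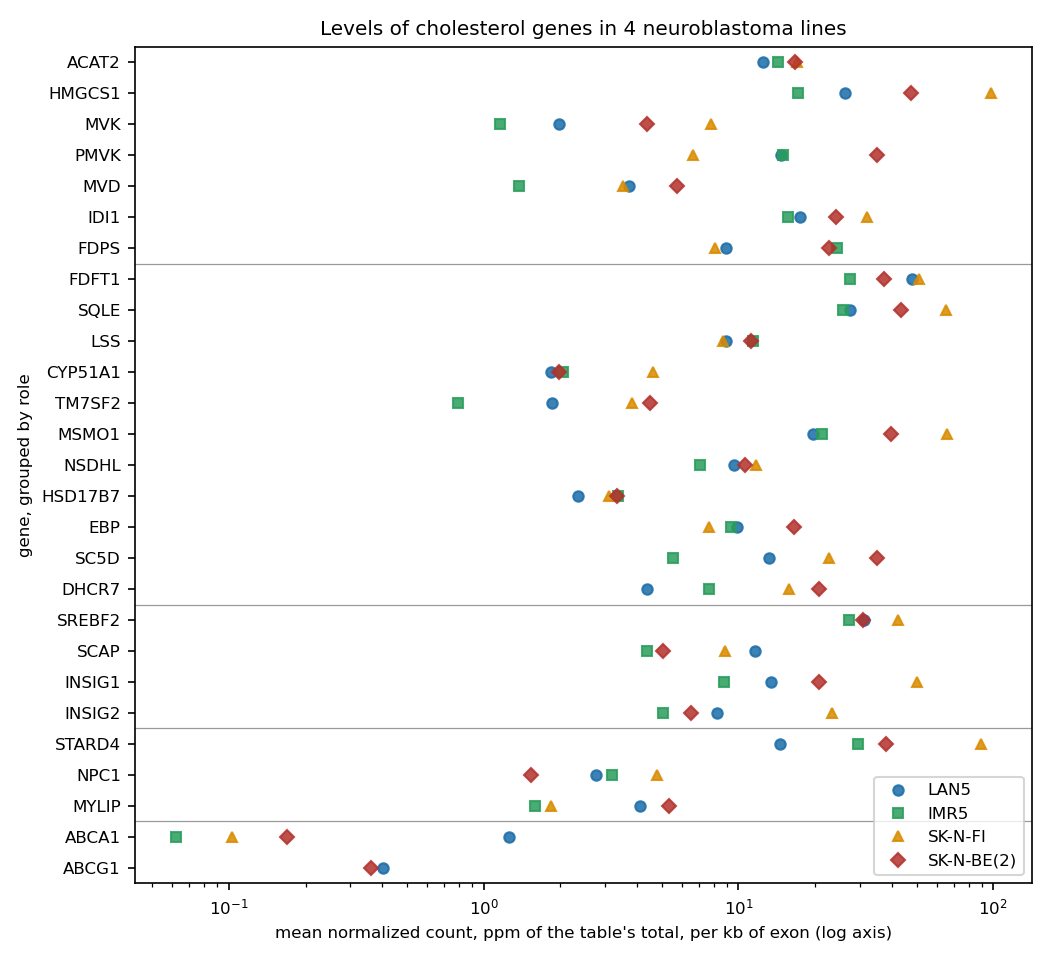
Mean normalized count in ppm of the table's total per kilobase of exon (log axis) of each gene in LAN5 (circles), IMR5 (squares), SK-N-FI (triangles) and SK-N-BE(2) (diamonds), with no error available; horizontal lines part the 5 roles. HMGCS1 and STARD4 reach 98.2 and 89.9 in SK-N-FI, while ABCA1 and ABCG1 lie at the foot of the scale.

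The deposited fold changes were pulled toward 0 by a prior, most strongly in SK-N-BE(2), so effects are given after removing it, as log2 changes ± standard error, and calls use the adjusted p of the authors' deposited table under 0.05. In LAN5, 7 of the 27 genes rose and 12 fell, where 22.5% of all tested genes rose and 19.2% fell. In IMR5, 6 of 26 rose and 9 fell, against 22.6% and 21.6% of all genes. SK-N-FI had 7 of 26 higher and 7 lower, against 16.8% and 14.8%. In SK-N-BE(2), 7 of 27 rose and none fell, against 1.62% and 0.858% of all tested genes, by the DESeq2 test of the authors' deposited table. At an unadjusted p under 0.05 in that table, 15 of the 27 were higher and none lower, against 3.03% and 1.93% of all listed genes, and no other tool could be run. With calls adjusted over genes with a mean of at least 100 alone, 9 rose in SK-N-BE(2). ABCG1 was then no longer tested in LAN5 and SK-N-BE(2) (means 38.1 and 35.4), nor MYLIP in IMR5 and SK-N-FI (93.9 and 89.6). ACAT2, HMGCS1 and MYLIP were gained in SK-N-BE(2) (adjusted p = 0.0460, 0.0460 and 0.0498), and HMGCS1 was gained as lower in IMR5 (0.0371). The share of all such genes called under this adjustment was not counted, so these calls have no matching background. The effect was positive for 26 of the 27 genes in SK-N-BE(2) and for 49.9% of all tested genes there. Of the shares of higher genes, that of SK-N-BE(2) exceeds its background by the widest margin and those of LAN5 and IMR5 lie near theirs. The list was chosen with earlier results of these data known, so these shares are a description. The 27 genes had median log2 changes of -0.13, -0.0746, 0.16 and 0.15 in LAN5, IMR5, SK-N-FI and SK-N-BE(2), beside 0.12, 0.0201, 0.0132 and -0.00026 over all tested genes. Over genes with a mean normalized count of at least 100, as most of the 27 have, the medians were -0.0871, -0.0139, 0.00229 and 0.00176, and after centring on these the 27 genes had -0.0387, -0.0607, 0.16 and 0.15.

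**Figure D2:**
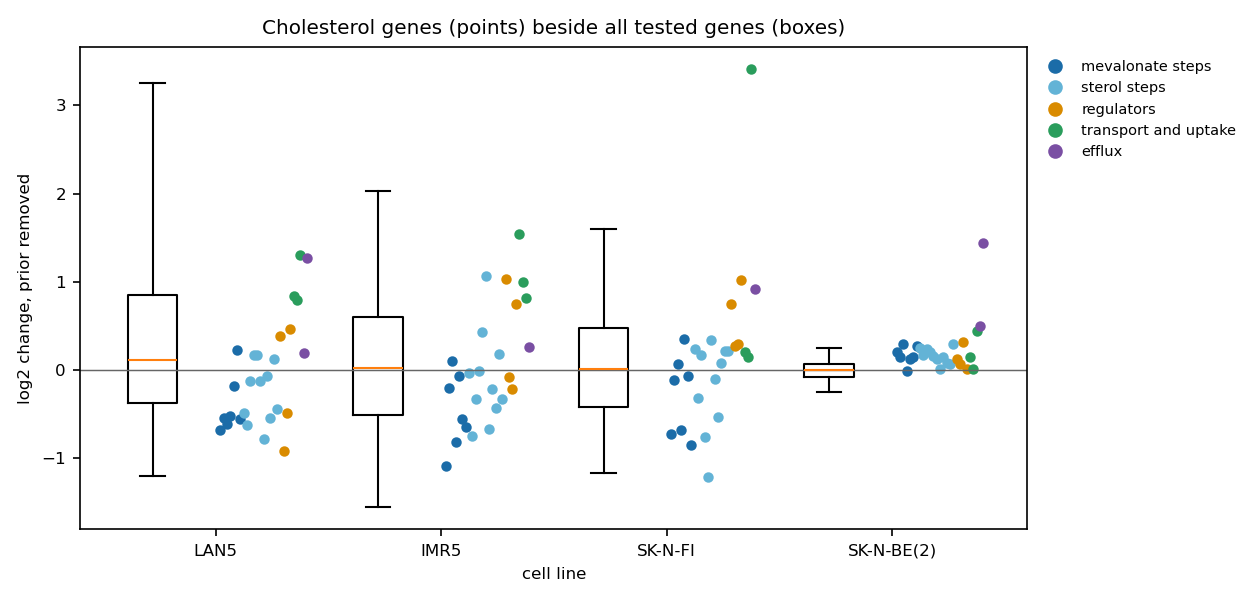
Log2 change with GSK-J4, prior removed, of each cholesterol gene (points, coloured by role and spread sideways in list order) beside all tested genes of the line (boxes from the 25th to the 75th percentile with the median, whiskers at the 5th and 95th). In SK-N-BE(2) 26 of 27 points lie above 0, and in SK-N-FI MYLIP stands apart at 3.41.

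The 18 enzymes of synthesis fell more often than they rose in the sensitive lines. In LAN5, 10 fell and 1 rose, with a median log2 change of -0.46, in IMR5 9 fell and 1 rose (median -0.27), and in SK-N-FI 7 fell and 1 rose (median -0.0855). In SK-N-BE(2), 5 rose and none fell (median 0.15). The genes that rose against this were IDI1 in LAN5 and MSMO1 in IMR5 and SK-N-FI. Of all tested genes, 19.2%, 21.6% and 14.8% fell in LAN5, IMR5 and SK-N-FI, and 22.5%, 22.6% and 16.8% rose. In SK-N-BE(2), 1.62% of all tested genes rose and 0.858% fell. Over genes with a mean normalized count of at least 100, the medians in the 4 lines were -0.0871, -0.0139, 0.00229 and 0.00176. Bulk RNA cannot tell fewer cells of a kind from less RNA per cell.

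Of the 7 mevalonate genes, 3 fell in all 3 sensitive lines. ACAT2 had effects of -0.68 ± 0.0830, -1.08 ± 0.0884, -0.72 ± 0.105 and 0.21 ± 0.0650 in LAN5, IMR5, SK-N-FI and SK-N-BE(2). It fell by 52.8% in IMR5, the lowest effect of any of the 27 genes in that line, and the value for SK-N-BE(2) did not pass the test (adjusted p = 0.0535 in the authors' deposited table). ACAT2 overlaps SOD2, SOD2-OT1 and TCP1 on the opposite strand, and whether counting used strand is not given in the sources used here. PMVK, phosphomevalonate kinase, had -0.52 ± 0.144, -0.81 ± 0.112, -0.68 ± 0.189 and -0.0136 ± 0.0783 in the same order. FDPS, which makes farnesyl diphosphate, had -0.55 ± 0.101, -0.64 ± 0.0712, -0.85 ± 0.125 and 0.27 ± 0.0603. Its promoter is shown above, and it was called in all 4 lines, higher in SK-N-BE(2) and lower in the others (adjusted p in SK-N-BE(2) = 0.000861 in the authors' deposited table). FDPS has 8 named pseudogene copies, so its counts are uncertain.

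The other mevalonate genes were called in 1 or more lines or in none. HMGCS1 fell in LAN5 by 0.54 ± 0.0721 on the log2 scale, and its effects of -0.20 ± 0.0918 in IMR5 and -0.11 ± 0.0977 in SK-N-FI did not pass. MVK fell in LAN5, with -0.61 ± 0.147, and had 0.0989 ± 0.171 in IMR5 and 0.0656 ± 0.112 in SK-N-FI. IDI1, which interconverts the isoprene units, rose in LAN5 (0.23 ± 0.0796) and fell in IMR5 (-0.56 ± 0.0787). The sensitive lines with amplified MYCN thus had calls of IDI1 in opposite directions. MVD, the decarboxylase between these steps, was called in no line, with effects of -0.18 ± 0.125, -0.0694 ± 0.176, 0.35 ± 0.159 and 0.13 ± 0.103.

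Among the 11 genes of the sterol steps, SQLE, the oxygen-dependent enzyme that commits squalene to sterols, fell in all 3 sensitive lines. Its effects were -0.62 ± 0.0684, -0.75 ± 0.0947, -0.32 ± 0.0977 and 0.17 ± 0.0478 in LAN5, IMR5, SK-N-FI and SK-N-BE(2). SQLE rose in SK-N-BE(2), where the authors' deposited table gives it an adjusted p of 0.0266. FDFT1, LSS and DHCR7 also rose in SK-N-BE(2) and fell in at least 1 sensitive line. FDFT1 had -0.49 ± 0.0664, -0.0293 ± 0.0826, 0.24 ± 0.129 and 0.25 ± 0.0572 in LAN5, IMR5, SK-N-FI and SK-N-BE(2). LSS had -0.13 ± 0.0784, -0.32 ± 0.0727, 0.17 ± 0.108 and 0.24 ± 0.0629, and of the sensitive lines passed the test in IMR5. DHCR7, the reductase of the last step, had -0.44 ± 0.122, -0.33 ± 0.101, 0.21 ± 0.115 and 0.30 ± 0.0692, so it fell in both sensitive MYCN-amplified lines. With FDPS, SQLE and INSIG1 these make 6 genes, of 26 tested in all 4 lines, that were lower in a sensitive line and higher in SK-N-BE(2), where 0.862% of the 12649 genes tested in all 4 lines were; that some of them did so was known from earlier results of these data.

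NSDHL and EBP, a dehydrogenase and an isomerase of the later sterol steps, fell in LAN5 and IMR5. NSDHL had -0.78 ± 0.145 and -0.67 ± 0.129 there and -0.10 ± 0.140 in SK-N-FI, and EBP had -0.55 ± 0.112 and -0.43 ± 0.108 there and 0.0853 ± 0.199 in SK-N-FI. CYP51A1, the lanosterol demethylase, TM7SF2, a sterol reductase, and HSD17B7, a sterol ketone reductase, passed the test as lower in SK-N-FI and in none of the other lines. TM7SF2 had 0.17 ± 0.205, 0.43 ± 0.275, -1.22 ± 0.177 and 0.15 ± 0.122 in LAN5, IMR5, SK-N-FI and SK-N-BE(2), and it overlaps VPS51 on the same strand. CYP51A1 had -0.76 ± 0.214 and HSD17B7 -0.54 ± 0.139 in SK-N-FI, and both have named pseudogene copies (3 and 2), which makes their counts uncertain. MSMO1, the methyl sterol oxidase, went the other way: it rose by 1.07 ± 0.121 in IMR5 and 0.34 ± 0.117 in SK-N-FI, and had -0.13 ± 0.0834 in LAN5 and 0.13 ± 0.0521 in SK-N-BE(2). SC5D was called in no line, with effects between 0.0711 and 0.21.

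**Figure D3:**
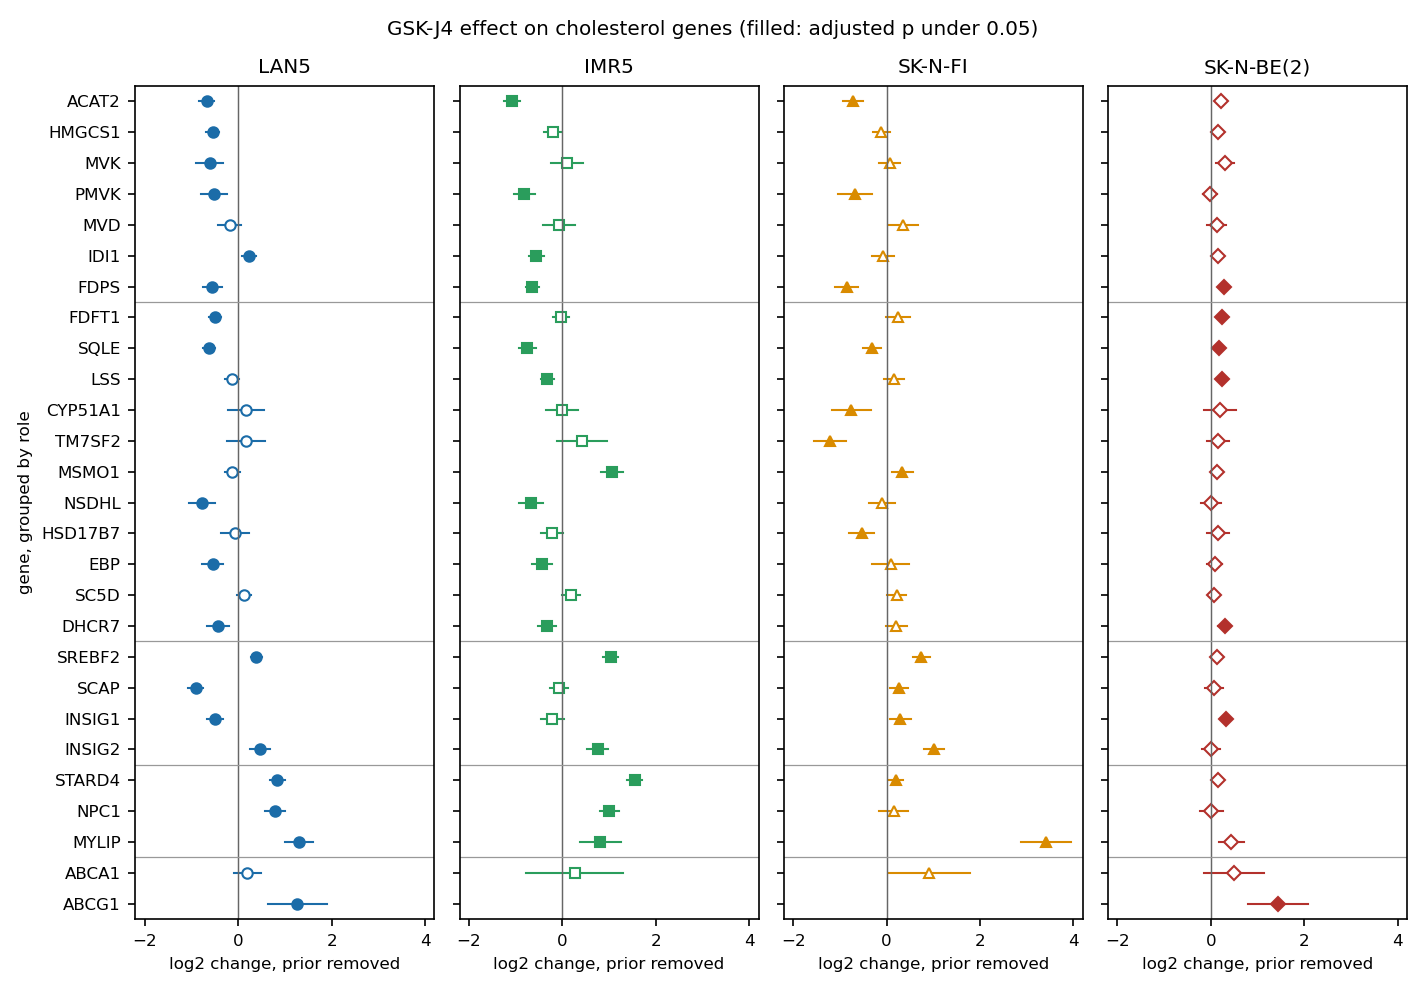
Log2 change with GSK-J4, prior removed, of the 27 genes in each line, with bars for the 95% interval from the standard error and filled symbols for an adjusted p under 0.05; horizontal lines part the roles. Most filled enzyme symbols lie left of 0 in LAN5, IMR5 and SK-N-FI, every filled symbol in SK-N-BE(2) lies right of it, and ABCG1 is absent where it was not listed.

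Of the 4 regulators, SREBF2 and INSIG2 rose in all 3 sensitive lines, and SCAP and INSIG1 were called in opposite directions between lines. SREBF2 rose by 0.39 ± 0.0590, 1.03 ± 0.0837 and 0.74 ± 0.0915 in LAN5, IMR5 and SK-N-FI, and had 0.13 ± 0.0482 in SK-N-BE(2) (adjusted p = 0.172 in the authors' deposited table). For IMR5 that is a 2.04-fold rise of the gene for the pathway's main transcription factor, in a line where 9 of 18 enzymes fell. INSIG2 rose by 0.47 ± 0.107, 0.75 ± 0.115 and 1.02 ± 0.111 in the 3 sensitive lines, and had 0.00813 ± 0.0983 in SK-N-BE(2). INSIG1, a close relative whose gene is itself a known SREBP-2 target, fell in LAN5 (-0.49 ± 0.0897), had -0.21 ± 0.129 in IMR5, and rose in SK-N-FI (0.30 ± 0.116) as in SK-N-BE(2) (0.32 ± 0.0637). INSIG1 had the lowest adjusted p of the 27 genes in SK-N-BE(2), where the authors' deposited table gives 8.08e-05. SCAP fell in LAN5 (-0.91 ± 0.0783), had -0.0799 ± 0.0989 in IMR5, rose in SK-N-FI (0.27 ± 0.0985) and had 0.0693 ± 0.0959 in SK-N-BE(2). SCAP had the lowest effect of the 27 genes in LAN5, where it fell by 46.9%. IDI1, SCAP and INSIG1 were the 3 genes of 26 called in opposite directions among the sensitive lines, where 12.6% of the 18599 genes tested in all 3 were, so their share is near the background.

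All 3 genes of transport and uptake rose in LAN5 and IMR5. STARD4 rose by 0.84 ± 0.0821, 1.54 ± 0.0808 and 0.20 ± 0.0772 in the 3 sensitive lines, and had 0.15 ± 0.0499 in SK-N-BE(2). Its rise in SK-N-FI had an adjusted p of 0.0337 in the authors' deposited table and did not pass at 0.01. NPC1, the lysosomal membrane protein through which cholesterol taken up by the cell leaves the lysosome, rose by 0.79 ± 0.108 in LAN5 and 1.00 ± 0.104 in IMR5, and had 0.15 ± 0.157 and 0.00876 ± 0.124 in SK-N-FI and SK-N-BE(2). NPC1 overlaps RMC1 on the opposite strand, and 14 of the 27 genes overlap a gene on the other strand. The library kit keeps strand, but whether counting used it is not given in the sources used here. MYLIP rose by 1.30 ± 0.154, 0.81 ± 0.223 and 3.41 ± 0.276 in LAN5, IMR5 and SK-N-FI, and had 0.44 ± 0.138 in SK-N-BE(2) (adjusted p = 0.0578 in the authors' deposited table). The value in SK-N-FI is a 10.6-fold rise (95% interval 7.32 to 15.5) and the highest effect of any of the 27 genes in any line. It comes from a mean normalized count of 89.6, and the authors' deposited log2 change, which keeps the prior, is 3.09. SREBF2, INSIG2, STARD4 and MYLIP were the 4 genes that rose in all 3 sensitive lines, where 5.01% of the 18599 genes tested in all 3 rose in each, and ACAT2, PMVK, FDPS and SQLE the 4 that fell in all 3, where 5.83% of all genes fell. Of these genes, 26 were tested in all 3 lines.

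Of the efflux pumps, ABCA1 was called in no line, with effects of 0.20 ± 0.148, 0.26 ± 0.527, 0.92 ± 0.441 and 0.50 ± 0.332 in LAN5, IMR5, SK-N-FI and SK-N-BE(2). Its error was smallest in LAN5, where its mean normalized count was 222, and the means of 13.7, 18.8 and 30.8 in the other lines, in that order, are low, all by the authors' deposited tables. ABCG1 rose in LAN5 (1.27 ± 0.324) and in SK-N-BE(2), with adjusted p-values of 0.000361 and 0.00087 in the authors' deposited tables. It was weak in both lines, and the authors' deposited tables give it mean normalized counts of 38.1 and 35.4. In SK-N-BE(2) the means of both pumps fall under the point, 134, where the equations that remove the prior change solution, so the sizes there, 0.50 for ABCA1 and 1.44 ± 0.323 for ABCG1, rest on that choice while the calls do not. The log2 changes of the authors' deposited table, which keep the prior, are 0.0990 for ABCA1 and 0.30 for ABCG1. CYP51A1 had a mean of 113 in SK-N-BE(2), under the same point. Its effect there, 0.20 ± 0.175, or 0.0942 with the prior kept, rests on that choice as well.

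Whether the effects differ between lines was tested on the 23 genes with a mean normalized count of at least 100 in all 4 tables, with a two-sided Wald test and Benjamini-Hochberg adjustment over all 8982 such genes. TM7SF2 and MYLIP entered at a minimum of 50, and ABCA1 and ABCG1 did not enter. The mean effect of the 3 sensitive lines minus that of SK-N-BE(2) was lower for 15 genes and higher for 5, where 32.6% of all genes were lower and 26.4% higher. The median difference was -0.38, against -0.0347 over all genes. By role, 13 of 17 enzymes were lower and 1 was higher. This comparison has 1 resistant line, and how far it rests on the reading of direction in the SK-N-BE(2) table was measured by turning the sign of that table, an alternative chosen after seeing the data. Turned so, 5 of the 23 genes were lower and 6 higher, where 32.5% and 27% of all genes were, and the median difference was 0.11. Of the 17 enzymes, 5 were then lower and 2 higher. The call was the same under both readings for 10 of the 20 genes called: ACAT2, PMVK, FDPS, SQLE and NSDHL were lower and MSMO1, SREBF2, INSIG2, STARD4 and NPC1 higher.

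The lowest difference of the 23 was that of ACAT2, with a mean effect of -0.83 in the sensitive lines and 0.21 in SK-N-BE(2), a difference of -1.04 ± 0.0842 (adjusted p = 3.75e-33). With the SK-N-BE(2) table turned it was -0.62 and that of PMVK, -0.68, was the lowest. FDPS followed at -0.95 ± 0.0841, SQLE at -0.73 ± 0.0697 and PMVK at -0.66 ± 0.117. NSDHL, DHCR7, MVK, HMGCS1, HSD17B7, EBP, FDFT1, LSS and IDI1 made up the other enzymes that were lower, with differences from -0.52 to -0.28. MVK (-0.22, adjusted p = 0.177), FDFT1 (-0.14, 0.195) and EBP (-0.25, 0.108) did not pass without LAN5, IDI1 did not without IMR5 (-0.0693, 0.557), and HSD17B7 did not without SK-N-FI (-0.29, 0.0966). Of the regulators, INSIG1 was lower (-0.46 ± 0.0910) and SREBF2 (0.59 ± 0.0665) and INSIG2 (0.74 ± 0.117) were higher. SCAP was lower (-0.31 ± 0.110, adjusted p = 0.00962), and without LAN5 its difference was 0.0249 (adjusted p = 0.874). STARD4 (0.72 ± 0.0680) and NPC1 (0.64 ± 0.144) were higher, as was MSMO1 (0.30 ± 0.0815), whose difference without IMR5 was -0.0254 (adjusted p = 0.825). Further differences moved by over 1.5 times when a line was left out and kept their call: IDI1 (-0.46), MSMO1 (0.57) and INSIG1 (-0.28) without LAN5, LSS (-0.21) and STARD4 (0.37) without IMR5, and EBP (-0.57) and SCAP (-0.57) without SK-N-FI. MYLIP, at the lower minimum, was higher by 1.40 ± 0.189 (adjusted p = 1.09e-12). MVD (95% interval -0.36 to 0.17), CYP51A1 (-0.81 to 0.0085) and SC5D (-0.0483 to 0.26) did not pass, nor did TM7SF2 at the lower minimum (-0.71 to -0.0133, adjusted p = 0.0699). CYP51A1 passed without LAN5 (-0.58, adjusted p = 0.0178), and its difference was -0.12 without SK-N-FI (adjusted p = 0.649). Each of these CYP51A1 differences rests on the choice of solution in SK-N-BE(2) given above.

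SK-N-FI was set against the mean of LAN5 and IMR5 as the sensitive line without MYCN amplification. Its effect was higher for 11 of the 23 genes and lower for 4, where 28.4% of all genes were higher and 18.9% lower, with a median difference of 0.26 against 0.0787 over all genes. Over all genes the calls split into 2548 higher and 1694 lower (60.1% higher), and into 2027 and 2161 (48.4%) once each line was centred on its median, under which 9 of the 23 genes were higher and 5 lower. SCAP had the highest difference of the 23, 0.76 ± 0.117 (adjusted p = 9.79e-10), from a mean of -0.50 in the MYCN-amplified lines and 0.27 in SK-N-FI. INSIG1 (0.65 ± 0.140), NSDHL (0.62 ± 0.170), DHCR7 (0.60 ± 0.140), EBP (0.57 ± 0.213), FDFT1 (0.50 ± 0.139), INSIG2 (0.41 ± 0.136), LSS (0.39 ± 0.121) and SQLE (0.37 ± 0.114) were also higher. For DHCR7, EBP, FDFT1 and LSS the mean effect was below 0 in the MYCN-amplified lines and above 0 in SK-N-FI, and for SQLE it was below 0 in both. MVD (0.48 ± 0.192) and HMGCS1 (0.26 ± 0.114) passed, but not after centring (adjusted p = 0.0763 and 0.182).

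STARD4 had the lowest difference of the 23, -0.99 ± 0.0963 (adjusted p = 6.43e-23), followed by CYP51A1 (-0.84 ± 0.251), NPC1 (-0.75 ± 0.174) and HSD17B7 (-0.39 ± 0.170). FDPS (-0.26 ± 0.139) passed after centring alone (-0.34, adjusted p = 0.0344). The transport genes therefore divide: at the lower minimum MYLIP was higher in SK-N-FI by 2.35 ± 0.307 (adjusted p = 4.88e-13), while STARD4 and NPC1 were lower. TM7SF2 was lower at the same minimum, with a difference of -1.51 ± 0.246 (adjusted p = 1.04e-08). SREBF2 did not differ beyond its error, at 0.0339 with a 95% interval of -0.17 to 0.24. All 13 mitochondrial mRNAs fell in SK-N-FI, with a lower median than in the other lines, and their part in these differences was not tested.

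LAN5 and IMR5, both sensitive and MYCN-amplified, differed for 9 of the 23 genes: 2 were higher in LAN5 and 7 lower, where 27.3% and 33.7% of all genes were, so neither share exceeds the background. IDI1 (0.79 ± 0.112) and ACAT2 (0.41 ± 0.121) were higher. The lower genes were MSMO1 (-1.19 ± 0.147), SCAP (-0.83 ± 0.126), MVK (-0.71 ± 0.226), STARD4 (-0.71 ± 0.115), SREBF2 (-0.64 ± 0.102), FDFT1 (-0.46 ± 0.106) and HMGCS1 (-0.34 ± 0.117). MSMO1 passed with the lowest adjusted p of these, 5.03e-15. LSS (0.20 ± 0.107) passed after centring alone (0.25, adjusted p = 0.0307).

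**Figure D4:**
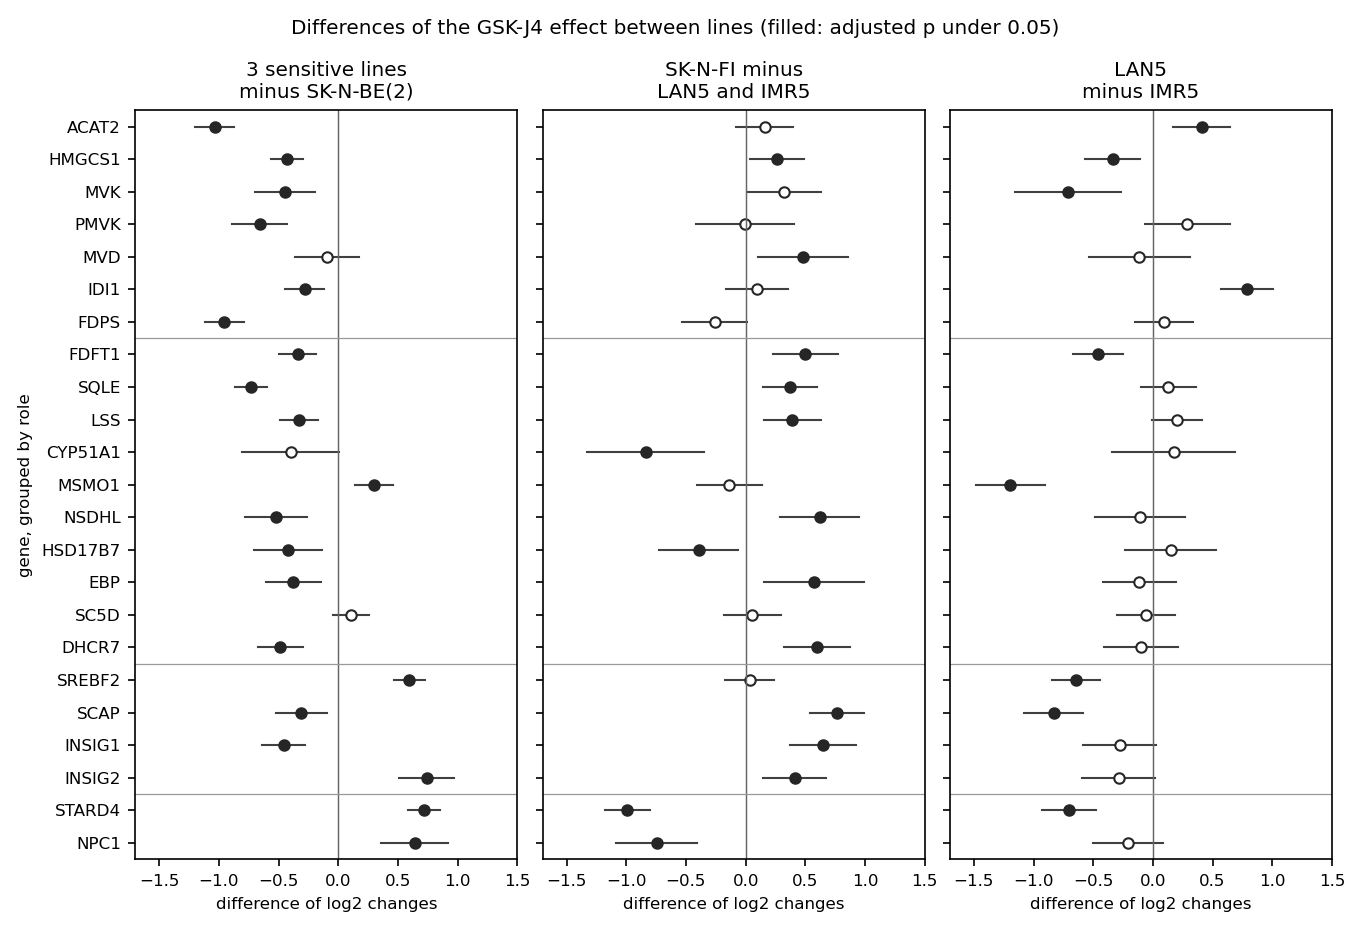
Difference of log2 changes for the 23 genes tested, as the mean of the 3 sensitive lines minus SK-N-BE(2), SK-N-FI minus the mean of LAN5 and IMR5, and LAN5 minus IMR5, with bars for the 95% interval and filled symbols for an adjusted p under 0.05 over 8982 genes. In the first panel 13 enzymes are filled left of 0, while SREBF2, INSIG2, STARD4 and NPC1 are filled right of it.

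Across these 23 genes the effects in LAN5 and IMR5 had a Pearson correlation of 0.76, those in IMR5 and SK-N-FI 0.63, and those in LAN5 and SK-N-FI 0.36. With SK-N-BE(2) the correlations were -0.27 for LAN5, -0.20 for IMR5 and -0.17 for SK-N-FI. Over all 8982 genes the same 6 values were 0.47, 0.47, 0.40, 0.0687, 0.12 and 0.0216. These are descriptions across genes, which are not independent, and each line's effects share that line's libraries.

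Other genes of sterol handling were followed in a list of 40 that holds none of the 27. In LAN5 11 rose and 7 fell of 36 tested, in IMR5 15 and 10 of 36, in SK-N-FI 11 and 10 of 37, and in SK-N-BE(2) 1 rose and none fell of 32. Over all tested genes the shares were 22.5% and 19.2% in LAN5, 22.6% and 21.6% in IMR5, and 16.8% and 14.8% in SK-N-FI. In SK-N-BE(2) they were 1.62% and 0.858%. Between the sensitive lines and SK-N-BE(2), 9 of 25 were higher and 9 lower, where 26.4% of all genes were higher and 32.6% lower. The 1 gene that rose in SK-N-BE(2), named here after its value was seen, was LIPA, the lysosomal lipase that frees cholesterol from its esters, at 0.21 ± 0.0649. VLDLR, a lipoprotein receptor and known MYLIP substrate, was higher by 1.53 ± 0.105 (effects 0.41, 1.72, 1.66 and -0.26 in LAN5, IMR5, SK-N-FI and SK-N-BE(2)). The endocytic receptor gene LRP1 was higher by 0.79 ± 0.131. LRP8, another receptor that MYLIP acts on, was lower, with a difference of -0.74 ± 0.0883, and so was TMEM97, which encodes an NPC1-binding protein, at -0.75 ± 0.0794. A list of 16 fatty acid genes, many of them under the related factor SREBP-1 and 1 of them (TMEM97) shared with the sterol list, had 4 higher and 10 lower in LAN5, 2 and 11 in IMR5, 2 and 7 in SK-N-FI, and 9 and 0 in SK-N-BE(2). The genes that rose, also named after their values were seen, were ACSS2 and ME1 in each sensitive line, with SREBF1 and MID1IP1 besides in LAN5. Of 15 tested, 1 was higher and 12 lower in the sensitive lines against SK-N-BE(2), where 26.4% of all genes were higher and 32.6% lower. The shares of all genes within each line are those given above. SCD, the stearoyl-CoA desaturase gene, had -1.04, -1.05, 0.10 and 0.34 in the 4 lines, FADS2, a fatty acid desaturase gene, -0.57, -1.12, -0.67 and 0.20, and FASN, fatty acid synthase, -0.80, -0.79, -0.46 and 0.26. ME1, whose enzyme supplies NADPH, was the 1 that was higher, with 2.22, 0.93, 0.66 and 0.0234.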

How the data were processed

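Polyadenylated RNA from 4 neuroblastoma lines, untreated or given 1 µM GSK-J4 for 72 hours (3 libraries per group), was made into libraries with a strand-keeping mRNA kit, per the labels' protocols. FastQC, STAR, DESeq2 and hg38 are named, without versions, per the submitters' processing notes. Counting tool, annotation and design formula: not given in the sources used here.

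Each line has 1 comparison table by the authors. Its signal column is, per the file headers, the mean of the authors' normalized counts. Also as deposited are each log2 fold change with its error, the Wald score and the p-values. In the SK-N-BE(2) table the score differs from fold change over error by a median of 0.000382, so its values may have been made in another way.

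Depth per library is unknown. The tests foreseen for counts were not possible. The normal prior on the fold changes was removed by solving its equations, with a width from the largest standard error of the table (0.539, 0.490, 0.428 and 0.0828 for LAN5, IMR5, SK-N-FI and SK-N-BE(2)). Of both solutions that with the smaller error was kept above the mean where the running median of the errors over 501 genes peaks (3.15, 4.01, 4.66 and 134 in the same order). Differences between lines used a two-sided Wald test on these values, with equal weight per line, over genes whose mean reached 100 in every table. The procedure was tested on simulated data shrunken with the same equations, which cannot show whether the deposited values follow them. It called 20 of 67 genes with a simulated log2 difference of 0.3, 57 of 66 with 0.5 and 67 of 67 with 1. Of 8782 genes without a simulated difference, 14 were called. The simulation changed 200 of 8982 genes, while in the data 26.4% were called higher and 32.6% lower between sensitive lines and SK-N-BE(2). Its rates of calling need not hold for the data. Calls use an adjusted p under 0.05.

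All 27 genes are named. From each of the other lists, the 4 genes with the largest absolute sensitive minus resistant difference are named. The 27 genes and the lists were chosen with earlier results of these data known. Gene positions and exon lengths come from GENCODE 29 (GRCh38). Alternatives were other thresholds, other minimum means, deposited folds, another prior width, centring, leaving out a line, and turning the sign of the SK-N-BE(2) table. Python 3.11.15, numpy 2.4.6, pandas 2.3.3, scipy 1.17.1 and matplotlib 3.10.9 were used.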

Additional observations from a re-analysis of the deposited data

Results flagged for a closer look

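The effect of GSK-J4 differed between lines, by the Wald test of the difference itself, for the genes listed here with their difference of log2 changes. The mean of the sensitive lines was lower than SK-N-BE(2) for ACAT2 (-1.04), HMGCS1 (-0.43), MVK (-0.45), PMVK (-0.66), IDI1 (-0.28), FDPS (-0.95), FDFT1 (-0.34), SQLE (-0.73), LSS (-0.33), NSDHL (-0.52), HSD17B7 (-0.42), EBP (-0.38), DHCR7 (-0.49), SCAP (-0.31) and INSIG1 (-0.46). That mean was higher for MSMO1 (0.30), SREBF2 (0.59), INSIG2 (0.74), STARD4 (0.72) and NPC1 (0.64). MVK, FDFT1, EBP and SCAP did not pass without LAN5, IDI1 and MSMO1 did not without IMR5, and HSD17B7 did not without SK-N-FI. With the sign of the SK-N-BE(2) table turned, 10 of the 20 genes called kept their call. SK-N-FI was higher than the mean of LAN5 and IMR5 for HMGCS1 (0.26), MVD (0.48), FDFT1 (0.50), SQLE (0.37), LSS (0.39), NSDHL (0.62), EBP (0.57), DHCR7 (0.60), SCAP (0.76), INSIG1 (0.65) and INSIG2 (0.41). It was lower for CYP51A1 (-0.84), HSD17B7 (-0.39), STARD4 (-0.99) and NPC1 (-0.75). Of these differences, HMGCS1 and MVD did not pass after centring, and HMGCS1, MVD, EBP and HSD17B7 did not at an adjusted p under 0.01. LAN5 was higher than IMR5 for ACAT2 (0.41) and IDI1 (0.79). It was lower for HMGCS1 (-0.34), MVK (-0.71), FDFT1 (-0.46), MSMO1 (-1.19), SREBF2 (-0.64), SCAP (-0.83) and STARD4 (-0.71).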

How the results depend on the processing

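No paired analysis was possible because the tables hold no values of single libraries; for the same reason single libraries could not be left out, and other count tests and normalizations were not run. Of the genes called in the sensitive minus resistant comparison 9 of 20 kept direction and call under every alternative run, in the SK-N-FI comparison 11 of 15, and between LAN5 and IMR5 9 of 9. Of the effects within a line this held for 18 of 19 called genes in LAN5, 15 of 15 in IMR5, 10 of 14 in SK-N-FI and 5 of 7 in SK-N-BE(2). The count of higher genes in SK-N-FI was 3 at an adjusted p under 0.01 (7 at 0.05), with INSIG1, MSMO1, SCAP and STARD4 lost. The count of higher genes in SK-N-BE(2) was 11 at an adjusted p under 0.1 (7 at 0.05). With a minimum mean of 200, 2 genes were lower in the SK-N-FI comparison (4 at 100), where fewer genes are tested. Without any filter INSIG1 in SK-N-FI (adjusted p = 0.0512) and SQLE in SK-N-BE(2) (0.0578) did not pass. Direction turned without LAN5 for MVD (0.0133) and SCAP (0.0249), and without IMR5 for MSMO1 (-0.0254), all against SK-N-BE(2). In the SK-N-FI comparison it turned for PMVK with deposited folds (0.0128), and after centring for SC5D (-0.0237) and SREBF2 (-0.0469), none of them called; the cause was not tested. Moving the mean at which the prior equations change solution by a factor of 2 or 0.5 was chosen after seeing the data and left the counts of called genes as they were. Also chosen after seeing the data was turning the sign of the SK-N-BE(2) table: 5 genes were then lower in the sensitive lines (15 as read), direction turned for MVK (0.15), MVD (0.16), IDI1 (0.0169), FDFT1 (0.16), LSS (0.14), DHCR7 (0.11) and INSIG1 (0.19), none of them called, HMGCS1, HSD17B7, EBP and SCAP no longer passed, and SC5D did (0.25). ABCA1 and ABCG1 were not compared between lines, because of the minimum mean and because ABCG1 is not listed in 2 tables; what depth per library limits is unknown.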
